A study of Rattus norvegicus with 20 samples.

Results

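The mitochondrial carriers of solute carrier family 25 were followed through 20 rat kidney libraries. The members were the rows of the gene table with a symbol made of Slc25a and a number that held a normalized count of at least 10 in at least 3 libraries. Of 39 such rows, 36 met this minimum among 15954 rows that did so in all, out of 34681 in the table. The other 3, Slc25a41, Slc25a53 and Slc25a54, lay under it. No row bore the symbol Slc25a12, Slc25a13, Slc25a36 or Slc25a40, so these members are not covered.

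These carriers are small proteins of the inner mitochondrial membrane that exchange a solute of the matrix for one of the intermembrane space. They move ADP and ATP, phosphate, citrate and malate, amino acids, acylcarnitines, coenzyme A, vitamins, iron and glutathione, and so join the tricarboxylic acid cycle and oxidative phosphorylation to the cytosol. Kidney tubule cells depend heavily on mitochondrial fatty acid oxidation and on ion pumping driven by ATP.

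Kidneys were compared between the disease labels Sham (6 libraries), RM (6), HS (5) and RM-HS (3) in a rat model of acute kidney injury after trauma. The labels do not spell out RM and HS, which are read here as rhabdomyolysis and haemorrhagic shock. No source used here gives strain, age, sex or the time after injury. The design text counts 19 libraries with 5 of RM, whereas the labels hold 6 of RM, all of which were used.

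Libraries held 45047179 to 109940948 counted reads, of which 42.2 to 54.7% lay in 14 mitochondrial genome rows. Nothing in the labels says that libraries of a group came from separate animals, so p-values measure the spread between libraries, which may be technical. The Sham libraries were not alike. Slc5a2, the early proximal tubule glucose transporter, stood at 48.2, 396, 180 and 43.1 normalized counts in Sham 2 to Sham 5, at 6791 in Sham 1 and at 7863 in Sham 6, against 9389 to 19919 in the other 14 libraries. Every comparison with Sham was therefore repeated with Sham 1 and Sham 6 as the only controls, which is called the 2-control comparison below. Library names begin with R in all Sham and RM-HS libraries, in HS 1 to HS 3 and in RM 1, and with S in HS 4, HS 5 and RM 2 to RM 6. What the letter marks is not stated, so RM and the letter can hardly be told apart. In whole tissue, fewer cells of a type and less RNA per cell cannot be told apart either.

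Tests used limma on log2(normalized count + 1), with p-values adjusted by Benjamini-Hochberg over all 15954 rows. A carrier is said to rise or fall where the adjusted p was under 0.05. Against Sham, 19 of the 36 carriers passed in RM, 8 upward and 11 downward, where 53% of all rows passed, 26.2% upward and 26.8% downward. In HS 18 passed, 7 upward and 11 downward, where 46.4% of all rows passed, 23.3% upward and 23.2% downward. In RM-HS 14 passed, 6 upward and 8 downward, where 42.3% of all rows passed, 21.3% upward and 21% downward. With the name letter in the fit 8 carriers passed in RM, and libraries named R alone leave RM 1 as the only RM library. The count in RM-HS was 7 without RM-HS 1. The shares of all rows that passed in these alternative fits are not given here. The lower counts are therefore not read as particular to the carriers. The carriers' shares in the fit of all libraries, 52.8, 50 and 38.9%, thus lay near those of all rows. Their median log2 fold change was -0.05 in RM, -0.09 in HS and -0.05 in RM-HS, beside -0.04, -0.03 and -0.03 over all rows. The changes ran both ways within the family.

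In all, 25 carriers passed in at least 1 of these comparisons and 11 in none. Slc25a24, Slc25a37 and Slc25a47 rose in RM, HS and RM-HS alike, and Slc25a20, Slc25a29, Slc25a34, Slc25a35 and Slc25a42 fell in all 3 groups. The 3 comparisons share their controls. With the 2-control comparison 13 carriers passed in RM, 9 in HS and 9 in RM-HS, where 32.9, 25.7 and 27.2% of all rows did, and 10, 9 and 8 carriers had the same call in the same direction with both control sets. The same 3 carriers rose in all 3 groups, but only Slc25a35 fell in all 3. Scaling by the upper quartile put the median log2 fold change of all rows at -0.18 in RM, -0.15 in HS and -0.16 in RM-HS. The split of the carriers was then 6 upward and 15 downward in RM, 6 and 14 in HS, and 4 and 10 in RM-HS. The shares of all rows upward and downward under that scaling are not given here.

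**Figure D1:**
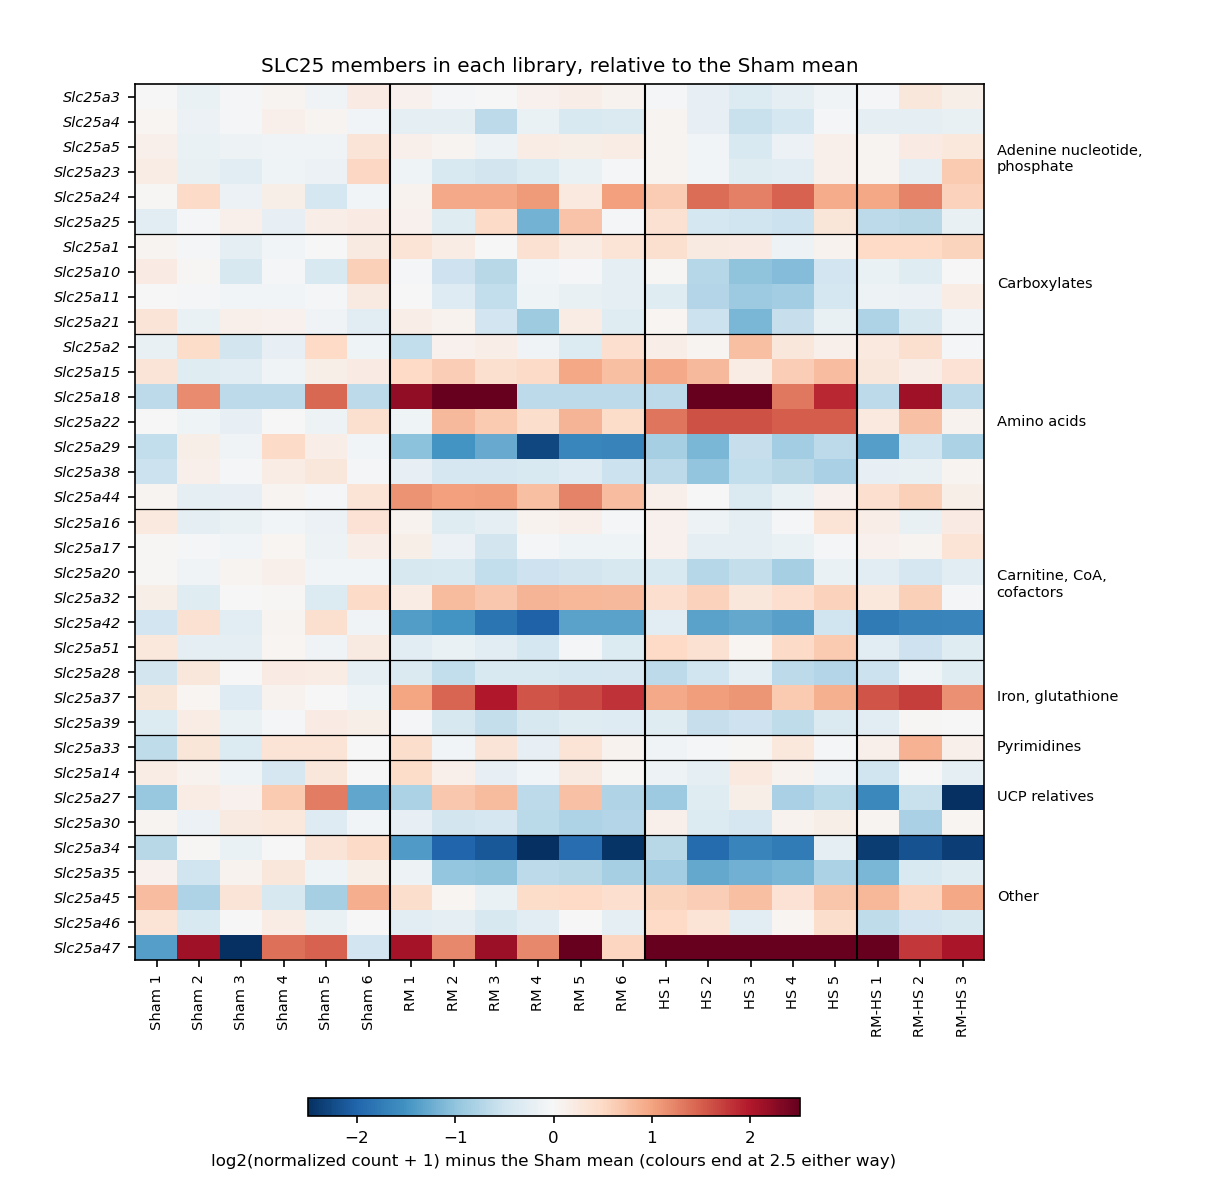
Colour shows log2(normalized count + 1) of 35 carriers (rows, grouped by role) in each of the 20 libraries (columns) minus the mean of the 6 Sham libraries, with colours ending at 2.5 either way. Slc25a37 is red in all 14 injured libraries, Slc25a34 and Slc25a42 are blue in all of them, and most other rows stay pale. Slc25a18 is deeply coloured at no more than 27.3 normalized counts.

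The starts of the genes that fell in all 3 groups against all 6 controls are shown, so that their promoters can be compared. Promoters were taken from RefSeq, build GRCr8, as the 250 bases before each gene's start, whereas all gene positions given elsewhere here are of build rn6. Slc25a20 covered chr8:118243323-118243572 on the plus strand, Slc25a29 chr6:133517198-133517447 on the minus strand and Slc25a34 chr5:159219893-159220142 on the minus strand. Slc25a35 covered chr10:54172115-54172364 and Slc25a42 chr16:19247724-19247973, both on the plus strand. Capitals mark a CCAAT box on either strand (CCAAT or ATTGG) or, in Slc25a20, the core of a GABPA site (CCGGAAG). GABPA is a factor known for nuclear genes of mitochondrial proteins. The sequences run 5′ to 3′ toward the start.
Slc25a20: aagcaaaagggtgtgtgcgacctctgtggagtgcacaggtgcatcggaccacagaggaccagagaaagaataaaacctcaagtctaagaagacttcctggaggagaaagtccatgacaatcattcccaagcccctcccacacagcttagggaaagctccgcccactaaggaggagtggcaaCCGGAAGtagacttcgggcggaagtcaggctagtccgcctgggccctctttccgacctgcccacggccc
Slc25a29: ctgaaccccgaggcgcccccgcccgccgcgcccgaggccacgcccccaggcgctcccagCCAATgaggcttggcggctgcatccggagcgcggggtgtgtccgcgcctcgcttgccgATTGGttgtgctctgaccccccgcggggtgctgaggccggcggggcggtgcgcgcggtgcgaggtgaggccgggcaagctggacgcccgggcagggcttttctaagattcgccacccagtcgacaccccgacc
Slc25a34: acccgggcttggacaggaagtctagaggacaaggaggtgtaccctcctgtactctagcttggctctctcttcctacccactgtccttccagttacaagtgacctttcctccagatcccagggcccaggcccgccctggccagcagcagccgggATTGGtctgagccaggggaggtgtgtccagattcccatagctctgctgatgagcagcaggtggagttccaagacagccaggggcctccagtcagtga
Slc25a35: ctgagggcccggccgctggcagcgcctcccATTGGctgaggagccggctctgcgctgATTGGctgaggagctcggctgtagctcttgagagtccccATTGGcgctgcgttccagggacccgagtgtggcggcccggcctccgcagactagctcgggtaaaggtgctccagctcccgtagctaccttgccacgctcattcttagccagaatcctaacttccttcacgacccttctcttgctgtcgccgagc
Slc25a42: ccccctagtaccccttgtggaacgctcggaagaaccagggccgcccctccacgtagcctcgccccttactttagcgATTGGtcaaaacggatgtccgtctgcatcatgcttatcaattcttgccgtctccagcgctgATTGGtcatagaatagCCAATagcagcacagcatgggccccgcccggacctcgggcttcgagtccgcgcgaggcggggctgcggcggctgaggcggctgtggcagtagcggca

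The GABPA core of Slc25a20 began at position -69 from the start. CCAAT boxes began at -191 and -133 in Slc25a29, at -97 in Slc25a34, at -220, -193 and -154 in Slc25a35, and at -174, -113 and -97 in Slc25a42. Of the carriers that rose in all 3 groups, Slc25a47 held 1 CCAAT box at -131 and Slc25a24 held none of the motifs searched. Over the 31 carriers with an entry, 19 promoters held a CCAAT box, and 34% of all 33469 promoters held one. The CCAAT box was added after the sequences had been looked at. The set of all promoters was not limited to tested rows and held fewer CpG dinucleotides, as given below. No excess of a motif is therefore read from these shares. The GABPA core stood in 5 of the 31 (Slc25a3, Slc25a4, Slc25a14, Slc25a20 and Slc25a38) and in 7.27% of all promoters. The ERR element TCAAGGTCA was in none of the 31 and in 0.388% of all promoters, and the ATF4 element TGATGNAA was in none and in 3.4%. The NRF1 core (GCGC, any 2 bases, GCGC) was in that of Slc25a10 alone and in 4.8% of all. The cyclic AMP element TGACGTCA was in Slc25a25 and Slc25a33 and in 1.59% of all, the antioxidant element TGACNNNGC in Slc25a25 and in 10.1%, and the E-box CACGTG in Slc25a2, Slc25a33 and Slc25a51 and in 5.59%. Both strands were searched, and a match describes letters only. The carriers' promoters held a median of 13 CpG dinucleotides, with a range of 1 to 33, beside a median of 5 over all promoters. Slc25a30, Slc25a32, Slc25a37 and Slc25a46 were among those not matched.

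Iron and glutathione carriers came apart by member. Slc25a37, which encodes mitoferrin-1, the iron importer of the inner membrane known best from red cell precursors, rose in all 3 groups. Slc25a37 (GSRG0011722, chr15:51128210-51168384) had 520 normalized counts in the lowest, 653 in the median and 801 in the highest Sham library. RM ran from 1283 through a median of 1988 to 2587. HS held 1255, 1333, 1388, 1025 and 1198, and RM-HS held 1928, 2145 and 1439. None of the 14 injured libraries overlapped Sham. The log2 fold change was 1.58 ± 0.14 (SE) in RM (limma adjusted p = 4.6e-08), 0.93 ± 0.15 in HS (limma adjusted p = 6.1e-05) and 1.48 ± 0.18 in RM-HS (limma adjusted p = 2.9e-06). RM exceeded HS by 0.65 ± 0.15 (limma adjusted p = 0.0038), although RM 1, the lowest of its group and the RM library named R, lay within the HS range. With libraries named R alone the difference between RM and HS was -0.05 (limma adjusted p = 0.95).

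Red cell precursors are known to express Slc25a37, so blood cell markers are given beside it. The 6 erythroid markers in the table summed to 214826 to 1306290 normalized counts in Sham, 366292 to 997084 in RM, 83445 to 467963 in HS and 372853 to 1075740 in RM-HS. They rose for 2 of 6 in RM and for none in HS or RM-HS. Their median log2 fold change was -0.67 in HS. Against HS, 5 of 6 were higher in RM (median log2 fold change 1.64), where 11.1% of all rows were higher. In RM-HS 4 of 6 were higher than in HS (median 1.70), where 10% of all rows were. The 5 neutrophil markers summed to 897 to 4743 in Sham, 5017 to 20508 in RM, 1929 to 8205 in HS and 7561 to 12620 in RM-HS, and 5 of 5, 1 of 5 and 5 of 5 rose. Of these, 4 of 5 were higher in RM than in HS and 2 of 5 in RM-HS than in HS. No defining marker of either list was at 0 throughout, and their part in the result was not tested.

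Slc25a28 encodes mitoferrin-2, the iron importer of most tissues. It went from 1895 ± 353 normalized counts in Sham (SD, n = 6) to 1380 ± 83.4 in RM (n = 6), 1281 ± 188 in HS (n = 5) and 1507 ± 226 in RM-HS (n = 3). Its log2 fold change was -0.44 ± 0.12 (SE) in RM (limma adjusted p = 0.0041) and -0.55 ± 0.12 in HS (limma adjusted p = 0.0011), and in RM-HS it was -0.32 ± 0.14 (limma adjusted p = 0.082). The log2 ratio of Slc25a37 to Slc25a28 was -1.86 to -0.76 in Sham, -0.17 to 0.86 in RM, -0.22 to 0.09 in HS and -0.06 to 0.59 in RM-HS. The ratio was thus higher in every injured library than in any Sham library. A ratio of counts compares libraries and not the levels of the 2 genes, since no values per transcript length were at hand. Slc25a39, the glutathione importer, fell in RM (-0.35 ± 0.10, limma adjusted p = 0.0077) and HS (-0.48 ± 0.11, limma adjusted p = 0.0011) and stood at -0.08 ± 0.13 in RM-HS. In the 2-control comparison neither Slc25a28 nor Slc25a39 passed in any group, whereas Slc25a37 passed in each, with 1.48, 0.83 and 1.38.

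**Figure D2:**
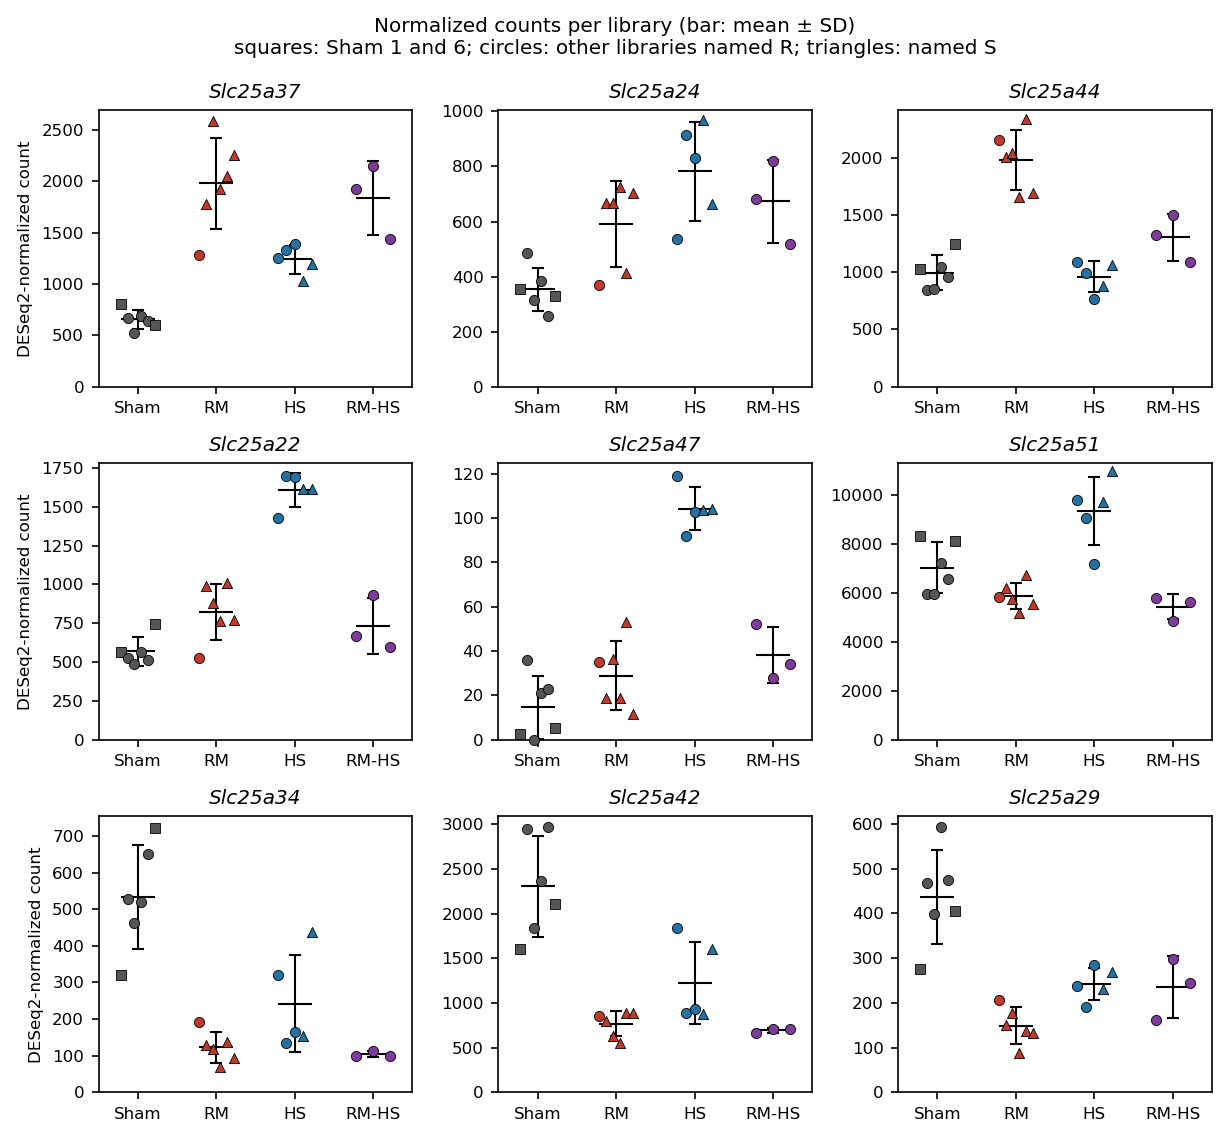
Each point is the normalized count of 1 library for 9 carriers, with the group mean ± SD as a bar. Squares are Sham 1 and Sham 6, triangles are libraries named S and circles the rest. For Slc25a37 the highest Sham library (801) lies under the lowest injured one (1025), and for Slc25a22 and Slc25a47 the 5 HS libraries lie above all others.

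Among 7 amino acid carriers, 3 rose and 2 fell in RM, 2 rose and 2 fell in HS, and 1 rose and 1 fell in RM-HS. Over all rows 26.2, 23.3 and 21.3% rose and 26.8, 23.2 and 21% fell in these groups. For RM against HS 2 were higher, 2 were lower and 3 did not pass, where 11.1% of all rows were higher and 12.6% lower. Such small counts by role, here and below, are not read as particular to a role. Slc25a44, a carrier of branched-chain amino acids, was high in RM. Slc25a44 (GSRG0016434, chr2:187772013-187786712) ran from 844 through 997 to 1249 normalized counts in Sham and from 1662 through 2026 to 2339 in RM. HS held 1087, 998, 765, 884 and 1068, within or under the Sham range, and RM-HS held 1327, 1504 and 1090. RM overlapped neither Sham nor HS nor RM-HS. Against Sham, the log2 fold change was 0.99 ± 0.12 (SE) in RM (limma adjusted p = 1.1e-06), -0.05 ± 0.12 in HS and 0.39 ± 0.14 in RM-HS (limma adjusted p = 0.036, and 0.46 in the 2-control comparison). RM exceeded HS by 1.05 ± 0.12 (limma adjusted p = 7.2e-06), and the size was 0.99 with libraries named S alone and 1.20 with libraries named R alone. RM-HS against RM gave -0.60 ± 0.14 (limma adjusted p = 0.049). This was the single carrier that passed between RM-HS and RM, where 1.08% of all rows passed. The call was lost in edgeR (edgeR adjusted p = 0.056), with no filter, with upper quartile scaling, in a fit of only the groups compared, in both fits by name letter and without any 1 of 13 libraries.

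Slc25a22, a glutamate carrier, was high in HS. Slc25a22 (GSRG0004701, chr1:213973489-213981330) had 490, 545 and 747 normalized counts in the lowest, median and highest Sham library and 523, 828 and 1009 in RM. HS held 1428, 1700, 1693, 1613 and 1615, and RM-HS held 666, 935 and 597. The HS libraries lay above every other library. Relative to Sham, the log2 fold change in HS was 1.51 ± 0.15 (SE, limma adjusted p = 5.3e-07), and it was 1.30 in the 2-control comparison (limma adjusted p = 0.00073). In RM it was 0.52 ± 0.15 (limma adjusted p = 0.0056), but 0.31 in the 2-control comparison (limma adjusted p = 0.28) and -0.11 with libraries named R alone, since RM 1 stood at 523. RM-HS did not pass (0.35 ± 0.18, limma adjusted p = 0.12). RM against HS gave -0.996 ± 0.15 (limma adjusted p = 0.0001), and RM-HS against HS gave -1.16 ± 0.18 (limma adjusted p = 0.00033). The related glutamate carrier Slc25a18 reached no more than 27.3 normalized counts in any library and did not pass in any comparison.

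Slc25a29, a carrier of lysine and arginine, was low in RM. Slc25a29 (GSRG0027308, chr6:132736974-132747762) ran from 277 through 437 to 592 normalized counts in Sham and from 87.3 through 143 to 208 in RM. HS held 238, 192, 284, 231 and 269, and RM-HS held 162, 299 and 244. RM did not overlap Sham, whereas HS and RM-HS each reached above the lowest Sham library, Sham 1. The log2 fold change was -1.56 ± 0.21 (SE) in RM (limma adjusted p = 3.5e-06), -0.82 ± 0.22 in HS (limma adjusted p = 0.004) and -0.90 ± 0.25 in RM-HS (limma adjusted p = 0.0072). In the 2-control comparison RM passed (-1.22, limma adjusted p = 0.0046), and HS (-0.48, limma adjusted p = 0.25) and RM-HS (-0.55, limma adjusted p = 0.22) did not. Without RM-HS 1 the change in RM-HS was -0.65 (limma adjusted p = 0.077).

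Slc25a38, the glycine carrier that feeds haem synthesis, was low in HS. Slc25a38 (GSRG0030613, chr8:128790348-128802986) ran from 1460 through 2198 to 2597 normalized counts in Sham and from 1468 through 1611 to 1848 in RM. HS held 1350, 1076, 1387, 1305 and 1214, all below Sham and RM, and RM-HS held 1836, 1863 and 2228. Against Sham, the log2 fold change in HS was -0.75 ± 0.12 (SE, limma adjusted p = 4.1e-05), and in RM it was -0.38 ± 0.11 (limma adjusted p = 0.0077), but -0.09 in the 2-control comparison (limma adjusted p = 0.63). RM-HS stood 0.64 ± 0.14 above HS (limma adjusted p = 0.0037). Slc25a15, the ornithine carrier of the urea cycle, rose in RM (0.61 ± 0.13, limma adjusted p = 0.00065) and HS (0.66 ± 0.14, limma adjusted p = 0.00063). These calls were lost in the 2-control comparison. The second ornithine carrier, Slc25a2, held 55.1 to 143 normalized counts and did not pass in any comparison.

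Carriers of carnitine, coenzyme A and vitamin cofactors fell for 3, rose for 1 and did not pass for 3 of 7 in RM. There, 26.8% of all rows fell and 26.2% rose. Slc25a42 imports coenzyme A. Slc25a42 (GSRG0011957, chr16:20962227-20985225) ran from 1604 through 2239 to 2970 normalized counts in Sham and from 554 through 827 to 890 in RM. HS held 1835, 888, 929, 879 and 1603, and RM-HS held 660, 710 and 714. RM and RM-HS lay wholly below Sham, while HS 1 and HS 5 stood near the lowest Sham library. Relative to Sham, the log2 fold change was -1.57 ± 0.19 (SE) in RM (limma adjusted p = 1.7e-06), -0.95 ± 0.20 in HS (limma adjusted p = 0.0008) and -1.69 ± 0.24 in RM-HS (limma adjusted p = 1.7e-05). In the 2-control comparison RM (-1.28) and RM-HS (-1.40) passed and HS did not (-0.66, limma adjusted p = 0.083). Slc25a16, a relative tied to coenzyme A transport, did not pass in any comparison, with 680 ± 122 normalized counts in Sham (SD, n = 6) and group means of 655 to 707 elsewhere. The log2 ratio of Slc25a42 to Slc25a16 was 1.01 to 2.36 in Sham, -0.36 to 0.55 in RM, 0.44 to 1.34 in HS and -0.20 to 0.27 in RM-HS.

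Slc25a20, the carnitine and acylcarnitine exchanger that brings fatty acids into the matrix, fell from 3142 ± 196 normalized counts in Sham (SD, n = 6) to 2280 ± 138 in RM (n = 6), 2193 ± 422 in HS (n = 5) and 2505 ± 133 in RM-HS (n = 3). Its highest RM, HS and RM-HS libraries, at 2408, 2810 and 2592, lay under the lowest Sham library, at 2959. The log2 fold change was -0.46 ± 0.09 (SE, limma adjusted p = 0.00028), -0.54 ± 0.10 (limma adjusted p = 0.00015) and -0.33 ± 0.11 (limma adjusted p = 0.024) in these groups, and the last did not pass in the 2-control comparison (-0.31, limma adjusted p = 0.15). Slc25a32, a carrier of folate and FAD, rose in RM (0.69 ± 0.15, limma adjusted p = 0.00068) and HS (0.46 ± 0.16, limma adjusted p = 0.022). Neither call of Slc25a32 held in the 2-control comparison (0.38 and 0.14). Slc25a17, the peroxisomal member, did not pass against Sham.

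Slc25a51, which brings NAD into mitochondria, was the single carrier that passed in opposite directions. Slc25a51 (GSRG0024790, chr5:60942566-60955960) ran from 5929 through 6881 to 8326 normalized counts in Sham and from 5147 through 5778 to 6699 in RM. HS held 9781, 9030, 7176, 9684 and 10978, and RM-HS held 5797, 4849 and 5614. HS lay above RM and RM-HS without overlap. It rose in HS (0.41 ± 0.11 (SE), limma adjusted p = 0.0046) and fell in RM (-0.25 ± 0.11, limma adjusted p = 0.049) and RM-HS (-0.36 ± 0.13, limma adjusted p = 0.029). The rise in HS was 0.17 in the 2-control comparison (limma adjusted p = 0.38), and the fall in RM was then -0.49 (limma adjusted p = 0.0098). Against all 6 controls, the call in RM was lost in most fits that left out 1 library, such as Sham 1 (limma adjusted p = 0.11). That in RM-HS was lost without Sham 1, Sham 6, RM-HS 2 or RM-HS 3. RM against HS, which uses no Sham library, gave -0.66 ± 0.11 (limma adjusted p = 0.00023), and RM-HS against HS gave -0.77 ± 0.13 (limma adjusted p = 0.00064).

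**Figure D3:**
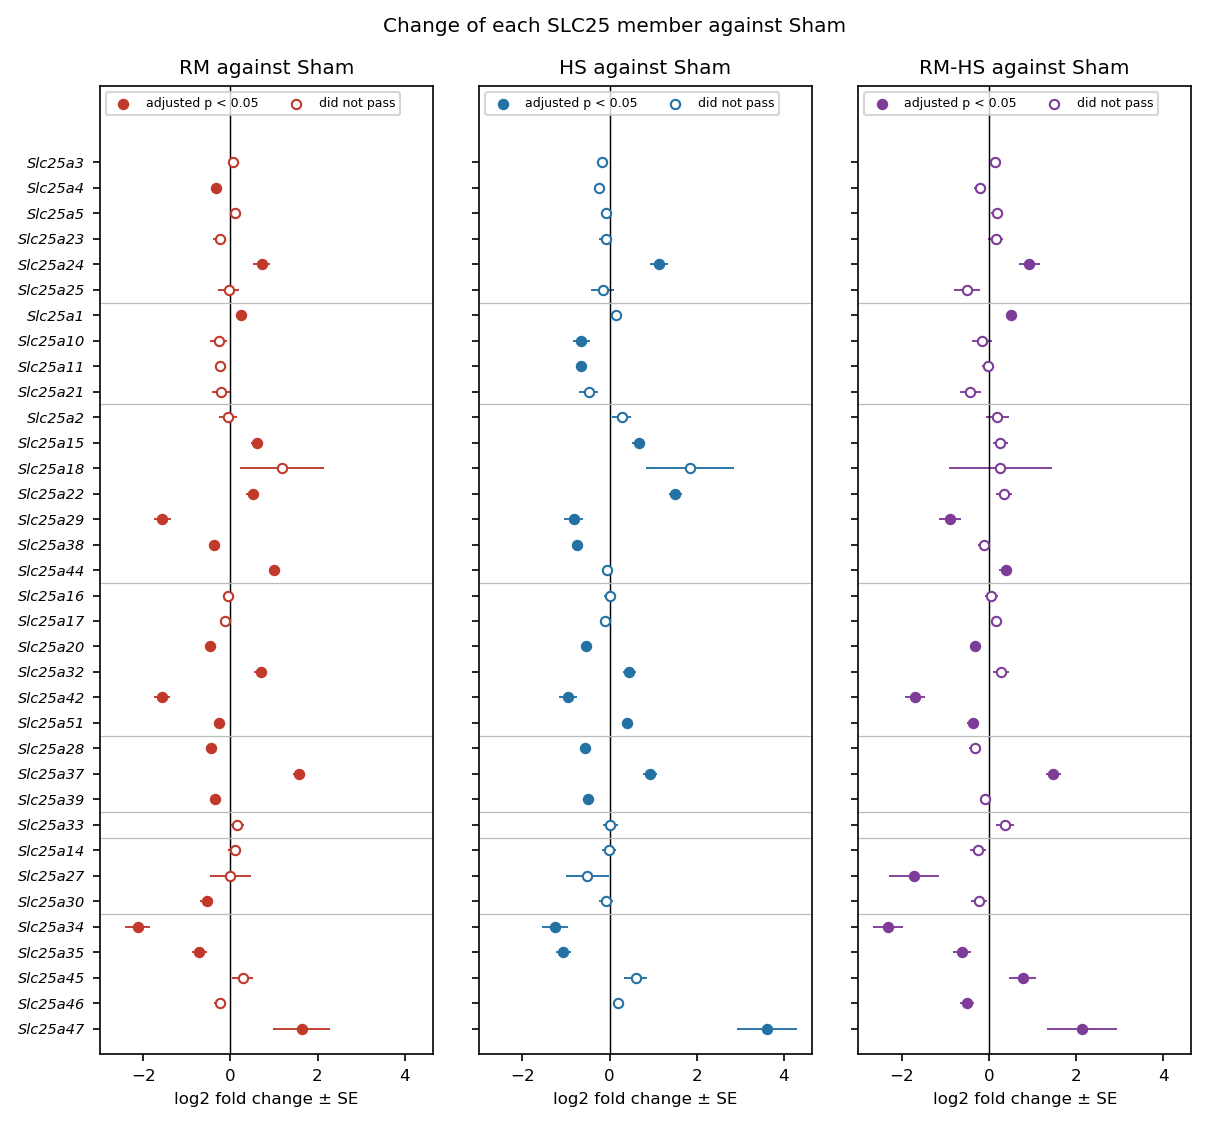
Points give the log2 fold change ± SE of 35 carriers against Sham, in RM, HS and RM-HS, grouped by role as in the plot of all libraries. Filled points passed at an adjusted p under 0.05. Slc25a47 has the widest bars among those that passed, and Slc25a34 lies farthest to the left in each panel.

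Among carriers of adenine nucleotides and phosphate, 1 of 6 rose in each group and 1 fell, in RM. All rows rose for 26.2, 23.3 and 21.3% in RM, HS and RM-HS, and fell for 26.8% in RM. Slc25a24, an ATP-Mg and phosphate carrier opened by calcium, was the carrier of these 6 that rose. Slc25a24 (GSRG0015657, chr2:211930354-211967505) ran from 255 through 342 to 484 normalized counts in Sham and from 368 through 667 to 727 in RM. HS held 537, 914, 830, 969 and 663, and RM-HS held 683, 820 and 517. HS and RM-HS lay above Sham, and RM 1 and RM 5 at 368 and 412 lay within the Sham range. Against Sham, the log2 fold change was 1.14 ± 0.21 (SE) in HS (limma adjusted p = 0.00018), 0.93 ± 0.24 in RM-HS (limma adjusted p = 0.0043) and 0.72 ± 0.20 in RM (limma adjusted p = 0.0046). With RM 1 as the only RM library, as when libraries named R are used alone, the last was 0.09 (limma adjusted p = 0.92). Its relatives Slc25a23 and Slc25a25 did not pass in any comparison with all 6 controls, whereas Slc25a23 fell in RM in the 2-control comparison (-0.60, limma adjusted p = 0.022). Slc25a25 spread from 2062 to 7637 normalized counts within RM.

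The ADP/ATP translocases and the phosphate carrier, which carry the bulk of the exchange for oxidative phosphorylation, moved little. Slc25a5 had 27573 ± 3727 normalized counts in Sham (SD, n = 6), 29346 ± 2221 in RM (n = 6), 26157 ± 3466 in HS (n = 5) and 31067 ± 2236 in RM-HS (n = 3), and did not pass in any comparison. Slc25a4 fell in RM (-0.33 ± 0.10 (SE), limma adjusted p = 0.0078), with -0.24 in HS and -0.21 in RM-HS, and the fall in RM was of the same size without passing in the 2-control comparison (limma adjusted p = 0.099). Its highest RM and RM-HS libraries, at 10992 and 10890, lay under the lowest Sham library, at 11143, while HS overlapped Sham. The log2 ratio of Slc25a4 to Slc25a5 was -1.53 to -0.94 in Sham, -1.69 to -1.44 in RM, -1.44 to -1.15 in HS and -1.60 to -1.43 in RM-HS. Slc25a3, the phosphate carrier, did not pass against Sham, and it was higher in RM than in HS (0.25 ± 0.08, limma adjusted p = 0.036) and in RM-HS than in HS (0.32 ± 0.10, limma adjusted p = 0.031). The reference lists pseudogene copies of Slc25a3, Slc25a4, Slc25a5 and Slc25a39, with which reads could be shared.

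**Figure D4:**
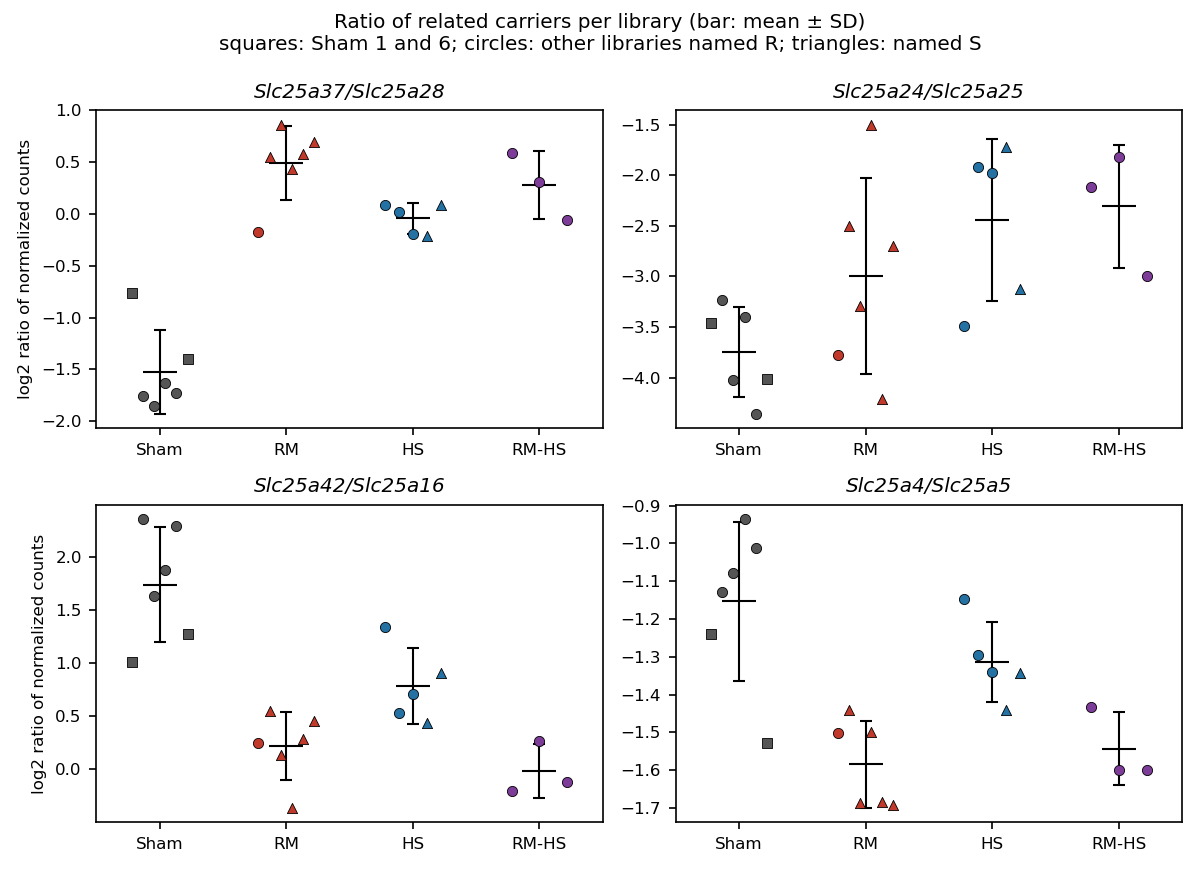
Points give, per library, the log2 ratio of the normalized counts of 2 related carriers, with the group mean ± SD as a bar. Symbols are as in the plot of normalized counts for 9 carriers. The ratio of Slc25a37 to Slc25a28 lies between -1.86 and -0.76 in Sham and above -0.22 in every injured library, and that of Slc25a42 to Slc25a16 is at least 1.01 in Sham and at most 0.55 in RM and RM-HS.

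Of 4 carboxylate carriers, 2 fell in HS, 1 rose in RM and 1 in RM-HS. Over all rows 23.2% fell in HS, 26.2% rose in RM and 21.3% rose in RM-HS. Slc25a11 exchanges oxoglutarate for malate in the malate-aspartate shuttle. Slc25a11 (GSRG0006554, chr10:57265330-57268181) ran from 8414 through 8631 to 10310 normalized counts in Sham and from 5770 through 7684 to 8857 in RM. HS held 7160, 5345, 4696, 4863 and 6502, all below Sham and RM-HS, and RM-HS held 8092, 8044 and 10127. Relative to Sham, the log2 fold change in HS was -0.65 ± 0.12 (SE, limma adjusted p = 0.00016), and RM-HS stood 0.63 ± 0.14 above HS (limma adjusted p = 0.0043). Slc25a10, the dicarboxylate carrier, fell in HS by the same size (-0.65 ± 0.19, limma adjusted p = 0.0095), with overlap between 6075 to 13152 in HS and 9811 to 19551 in Sham. Slc25a1, the citrate carrier of fatty acid synthesis, rose in RM-HS (0.52 ± 0.11, limma adjusted p = 0.00073), where it held 4612 to 4806 against 2802 to 3822 in Sham, and in RM (0.24 ± 0.09, limma adjusted p = 0.029). In the 2-control comparison these were 0.37 (limma adjusted p = 0.054) and 0.09 (limma adjusted p = 0.59), and Slc25a10 then fell in RM too (-0.67, limma adjusted p = 0.043). Slc25a21, the oxoadipate carrier, did not pass in any comparison.

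The carriers with little known substrates held both the deepest fall and the largest rise. Slc25a34 (GSRG0036834, chr5:160175206-160179978) ran from 320 through 524 to 722 normalized counts in Sham and from 68.7 through 125 to 193 in RM. HS held 321, 136, 165, 153 and 439, and RM-HS held 99.1, 112.9 and 99.8. RM and RM-HS lay below Sham, whereas HS 1 and HS 5 reached into its range. The log2 fold change was -2.13 ± 0.28 (SE) in RM (limma adjusted p = 3.6e-06), -1.25 ± 0.29 in HS (limma adjusted p = 0.0018) and -2.31 ± 0.34 in RM-HS (limma adjusted p = 3.1e-05). In the 2-control comparison RM (-2.02) and RM-HS (-2.20) passed and HS did not (-1.14, limma adjusted p = 0.07). RM against HS gave -0.88 ± 0.29 (limma adjusted p = 0.035, and 0.12 without HS 5).

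Slc25a35 (GSRG0005485, chr10:55555089-55559082) ran from 422 through 636 to 724 normalized counts in Sham and from 298 through 351 to 545 in RM. HS held 324, 245, 259, 269 and 343, all below Sham, and RM-HS held 269, 459 and 480. Against Sham, the log2 fold change was -0.71 ± 0.17 (SE) in RM (limma adjusted p = 0.0016), -1.06 ± 0.18 in HS (limma adjusted p = 8.6e-05) and -0.61 ± 0.21 in RM-HS (limma adjusted p = 0.023), and the last was -0.35 without RM-HS 1 (limma adjusted p = 0.23). All 3 passed in the 2-control comparison, with -0.84, -1.19 and -0.74. With RM 1 as the only RM library the change in RM was -0.13. The end of the gene overlaps Rangrf, so some reads may be shared.

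Slc25a47, known mainly from liver, was at the bottom of the measured range. Slc25a47 (GSRG0026399, chr6:132762246-132767945), next to Slc25a29, ran from 0 through 13.2 to 36.1 normalized counts in Sham and from 11.4 through 26.8 to 53.3 in RM. HS held 119, 91.8, 103, 104 and 104, and RM-HS held 52.3, 27.9 and 34.2. The 5 HS libraries lay above all others and the remaining groups overlapped. Relative to Sham, the log2 fold change in HS was 3.62 ± 0.68 (SE, limma adjusted p = 0.00026), and edgeR on recovered reads gave 2.86 (edgeR adjusted p = 0.0011). In RM it was 1.63 ± 0.65 (limma adjusted p = 0.041) and in RM-HS 2.15 ± 0.80 (limma adjusted p = 0.036). Both calls depended on the tool, as edgeR gave 0.99 (edgeR adjusted p = 0.18) and 1.39 (edgeR adjusted p = 0.12), and on Sham 3, which held 0, since without it the values were 1.01 and 1.53. Both calls were also lost without Sham 1 or Sham 6, that in RM without RM 1, RM 3 or RM 5, and that in RM-HS without any 1 of its libraries.

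Slc25a45 (GSRG0001986, chr1:221237629-221244564) depended on which Sham libraries served as controls. It held 1111 normalized counts in Sham 1 and 1217 in Sham 6, and 382, 816, 494 and 365 in Sham 2 to Sham 5. RM ran from 578 through 880 to 916, HS held 961, 998, 1103, 832 and 1057, and RM-HS held 1151, 951 and 1270. Against all 6 controls it rose in RM-HS (0.78 ± 0.30 (SE), limma adjusted p = 0.045), and in the 2-control comparison the value there was -0.06 and RM fell (-0.55, limma adjusted p = 0.022). The 7 early proximal tubule markers moved with the same libraries. They summed to 62316 to 270947 normalized counts in Sham, 213444 to 325629 in RM, 223113 to 279576 in HS and 253534 to 434584 in RM-HS, and rose for 7, 5 and 7 of 7 against all 6 controls and for 1, 0 and 2 in the 2-control comparison. Their part in the result was not tested. Slc25a46, an outer membrane member tied to mitochondrial shape, fell in RM-HS (-0.50 ± 0.16, limma adjusted p = 0.016).

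Relatives of the uncoupling proteins showed 1 fall each in RM and RM-HS and none in HS, where 26.8, 21 and 23.2% of all rows fell. Slc25a27 (GSRG0032189, chr9:19880477-19906304) ran from 20.6 through 57.8 to 128 normalized counts in Sham and from 29.6 through 58.3 to 90.1 in RM. HS held 27.4, 41.9, 57.7, 29.4 and 32.0, and RM-HS held 16.3, 34.9 and 5.70. The groups overlapped, and the fall in RM-HS (-1.72 ± 0.57 (SE), limma adjusted p = 0.02) was -0.60 in the 2-control comparison (limma adjusted p = 0.53) and -1.09 without RM-HS 3 (limma adjusted p = 0.17). Slc25a30 fell in RM (-0.54 ± 0.15, limma adjusted p = 0.0054, and 0.068 in the 2-control comparison). Slc25a14 did not pass in any comparison. The pyrimidine nucleotide carrier Slc25a33 passed in none with all 6 controls and rose in RM-HS in the 2-control comparison (0.69, limma adjusted p = 0.039).

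Between the injured groups, which share no Sham library, 14 carriers passed for RM against HS, 6 upward and 8 downward, where 23.8% of all rows did. For RM-HS against HS 12 passed, 7 upward and 5 downward, where 20.6% of all rows did. Slc25a22, Slc25a34, Slc25a42, Slc25a46 and Slc25a51 were higher in HS than in RM and RM-HS, and Slc25a3, Slc25a11, Slc25a37, Slc25a38 and Slc25a44 were lower in HS than in both. These 2 comparisons share the HS libraries. The named carriers were not equally firm. For RM-HS against HS, Slc25a34 and Slc25a42 lost the call without RM-HS 1, RM-HS 2 or RM-HS 3, and Slc25a3, Slc25a37 and Slc25a44 without RM-HS 2. For RM against HS, Slc25a3, Slc25a11, Slc25a34, Slc25a38, Slc25a42 and Slc25a46 lost it in some fits that left out a single library. Counts moved with single libraries: RM against HS gave 8 without HS 5 and 9 without RM 4, and RM-HS against HS gave 5 without RM-HS 2. With libraries named R alone, 2 and 3 carriers passed.

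The combined injury was also set against the sum of the single ones. The departure from additivity (log2 change of RM-HS less the log2 changes of RM and HS, each against Sham) passed for 16 carriers, 8 upward and 8 downward, where 31.7% of all rows passed, 14.9% upward and 16.8% downward. The 2 highest were Slc25a29 at 1.48 ± 0.33 (SE, limma adjusted p = 0.0023) and Slc25a35 at 1.16 ± 0.27 (limma adjusted p = 0.0034). The 2 lowest were Slc25a47 at -3.10 ± 1.05 (limma adjusted p = 0.03) and Slc25a22 at -1.67 ± 0.23 (limma adjusted p = 8.5e-05). The Sham libraries enter this value and both single changes with opposite signs. Scaling by the upper quartile put the median of all rows at 0.15, and 14 carriers were then upward and 5 downward. With the name letter in the fit 2 carriers passed, and libraries named R alone leave RM 1 as the only RM library. The shares of all rows that passed in these alternative fits are not given here. Nor is the count of carriers with Sham 1 and Sham 6 as the only controls.

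Genes that work with the carriers were read from lists by role, to be set against the 53, 46.4 and 42.3% of all rows that passed in RM, HS and RM-HS, or 32.9, 25.7 and 27.2% with 2 controls. Of 10 genes for the import of carrier proteins, 2 rose and 1 fell in RM, 1 rose and 3 fell in HS, and 2 rose and 2 fell in RM-HS. With 2 controls 3, 1 and 1 rose and 0, 1 and 0 fell. The import receptor Tomm70 rose by 0.96 ± 0.10 (SE), 0.66 ± 0.10 and 0.59 ± 0.12 on the log2 scale in RM, HS and RM-HS. Of 8 genes of the carnitine shuttle and coenzyme A synthesis, the partners of Slc25a20 and Slc25a42, 6, 3 and 5 fell and 1, 1 and 0 rose, and with 2 controls 5, 3 and 4 fell and none rose. Cpt1b, the muscle form of the enzyme that makes acylcarnitines, had 2070 ± 380 normalized counts in Sham (SD, n = 6), 317 ± 230 in RM (n = 6), 440 ± 116 in HS (n = 5) and 254 ± 48.9 in RM-HS (n = 3). Its fall was the largest of that list in each group, with -2.93, -2.25 and -3.02. Skeletal muscle markers summed to no more than 172 normalized counts in any library. Adipocyte markers summed to 910 to 2464 in Sham, 808 to 2710 in RM, 1037 to 1747 in HS and 1236 to 1447 in RM-HS. Of the 2 adipocyte markers tested, 1 fell in each group against all 6 controls and 0 with 2 controls. The part of either cell type in the fall of Cpt1b was not tested.

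Of 9 genes of the malate-aspartate shuttle and citrate use, 4, 2 and 4 rose and 1, 2 and 0 fell in RM, HS and RM-HS, and with 2 controls 2, 0 and 2 rose and none fell. Acly, which splits the citrate that Slc25a1 exports, rose by 2.80 ± 0.13 (SE), 0.38 ± 0.14 and 1.46 ± 0.16 on the log2 scale, of which the rise in HS was 0.27 with 2 controls (limma adjusted p = 0.35). Of 9 mitochondrial one-carbon and thiamine genes, 5, 2 and 5 rose and 1, 3 and 2 fell, and with 2 controls 3, 1 and 3 rose and 1, 1 and 1 fell. Mthfd2, which uses the folate that Slc25a32 carries, rose by 2.52 ± 0.29, 1.32 ± 0.31 and 2.25 ± 0.36. Of 14 haem, iron-sulfur and glutathione genes, 4, 0 and 1 rose and 7, 8 and 6 fell, and with 2 controls 3, 0 and 1 rose and 5, 3 and 4 fell. Alas1, the first enzyme of haem synthesis outside red cells, fell in RM (-0.84 ± 0.12) and RM-HS (-0.69 ± 0.15) and stood at -0.14 ± 0.13 in HS. These values do not say in which cells the change lay.

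Of 10 ornithine, glutamate and branched-chain amino acid genes, 3, 2 and 1 rose and 5, 5 and 2 fell in RM, HS and RM-HS, and with 2 controls 2, 2 and 1 rose and 3, 4 and 1 fell. Bcat2, the mitochondrial transaminase of branched-chain amino acids, fell, with log2 fold changes of -0.90, -1.29 and -0.77. Slc25a44 rose in RM, whereas its rise in RM-HS did not pass in the 2-control comparison. Of 11 regulators of mitochondrial biogenesis, 5, 4 and 3 rose and 3, 2 and 2 fell, and with 2 controls 2, 2 and 2 rose and 2, 3 and 2 fell. Pprc1, a coactivator, rose by 2.19 ± 0.16 (SE), 1.18 ± 0.16 and 1.93 ± 0.19, and the nuclear receptor Esrrb fell, with -3.13 ± 0.39, -2.40 ± 0.41 and -4.12 ± 0.48. Thick ascending limb markers fell for 5, 5 and 4 of 5 and principal cell markers for 6 of 6 in each group. With 2 controls these were 5, 5 and 4 of 5 and 4, 2 and 3 of 6. Their part in the falls of Esrrb and of the carriers was not tested.

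Of 9 ATP synthase and creatine kinase genes, 0, 0 and 1 rose and 4, 5 and 2 fell in RM, HS and RM-HS, and with 2 controls none rose and 1, 3 and 0 fell. Of 11 outer membrane channels and other inner membrane transporters, 1, 1 and 2 rose and 0, 3 and 0 fell, and with 2 controls 1, 1 and 1 rose and 0, 3 and 0 fell. Mcu, the pore of the calcium uniporter, rose by 0.81 ± 0.09 (SE), 0.97 ± 0.10 and 0.90 ± 0.11. Among family members with other symbols, Ucp2 fell in all 3 groups (-0.50 ± 0.17, -0.58 ± 0.18 and -0.54 ± 0.21), Mtch1 fell in RM and HS (-0.37 and -0.35), and Mtch2 did not pass. Neither Ucp2 nor Mtch1 passed in the 2-control comparison.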

How the data were processed

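Per the labels' protocols, kidney RNA of 20 libraries was measured by stranded, paired-end mRNA sequencing. The submitters' processing notes name FastQC 0.11.2, Picard 1.119, SAMtools 1.0, STAR, featureCounts of Subread 1.5.0, DESeq2 and the rn6 build, and per these notes the deposited signal values are read counts that the authors normalized with DESeq2. No source used here gives the alignment settings or the strand used in counting. Dividing out each library's size factor recovered whole reads, as 100% of values then lay within 0.1 of a whole number.

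The main test was limma 3.58.1 with trend (R 4.3.3) on log2(value + 1), as 1 fit of the 4 group means over all 20 libraries, on the 15954 rows that reached 10 in 3 or more libraries. Fold changes are on that scale, which can distort those of low genes. For Slc25a47 they were larger than those of edgeR. The count tests edgeR 4.0.16 and DESeq2 1.42.0 on the recovered reads, other filters, scalings and pseudocounts, the name letter, other control sets and each library left out were alternatives. Scripts were tested on simulated data. Promoters came from RefSeq (GRCr8), matched by symbol for 31 of 36 carriers.

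Members, partner lists and alternatives were chosen with earlier results of these data known. Per-library values are given for the 3 largest rises and falls against Sham, and the 2 largest each way elsewhere, among carriers that passed and whose higher group mean was 50 or more. Partner genes are among the 3 of smallest adjusted p in their list. Slc25a51 was added after its values were seen. Values of 1 carrier and of 1 partner gene are not reported here.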

Additional observations from a re-analysis of the deposited data

Results flagged for a closer look

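Of 108 sets of a carrier and a group with 4 to 10 libraries, 7 had 1 library set far from the rest, and chance gives about 1 in 20. These were Slc25a2 in HS 3 (142.5 normalized counts, highest of HS), Slc25a11 in Sham 6 (10310, highest), Slc25a18 in RM 3 (27.33, highest), Slc25a22 in Sham 6 (747.2, highest), Slc25a28 in RM 2 (1220, lowest), Slc25a32 in RM 1 (328.2, lowest) and Slc25a35 in RM 1 (545.2, highest). Sham 6 and RM 1 each account for 2 of them.

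The departure from additivity passed for 16 carriers, where 31.7% of all rows passed. With the name letter in the fit most of these carriers did not pass. The departure from additivity can therefore not be told apart from an effect of the letter or of the unlike Sham libraries. It was upward, on the log2 scale, for Slc25a29 (1.479), Slc25a35 (1.161), Slc25a38 (1.019), Slc25a11 (0.8714), Slc25a39 (0.7521), Slc25a20 (0.6738), Slc25a28 (0.6722) and Slc25a17 (0.3989). It was downward for Slc25a47 (-3.104), Slc25a22 (-1.675), Slc25a37 (-1.022), Slc25a15 (-1.01), Slc25a24 (-0.9261), Slc25a32 (-0.8698), Slc25a44 (-0.5499) and Slc25a51 (-0.5206).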

How the results depend on the processing

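No paired analysis was possible because the labels carry no replicate numbers. Leaving out each library in turn gave 17 to 20 carriers for RM against Sham, 17 to 20 for HS against Sham, 7 to 14 for RM-HS against Sham (7 without RM-HS 1), 8 to 14 for RM against HS (8 without HS 5, 9 without RM 4), 5 to 12 for RM-HS against HS (5 without RM-HS 2, 7 without HS 4 or RM-HS 3), 0 to 1 for RM-HS against RM, and 12 to 19 for the departure from additivity. With the name letter in the fit, 8 carriers passed for RM against Sham, 8 for RM against HS, 6 for RM-HS against HS and 2 for additivity. With libraries named R alone, which leave RM 1 as the only RM library and assume that it varies like the others, the counts were 3, 2, 3 and 0 (6 at an unadjusted p under 0.05). With libraries named S alone, an alternative added after the data were seen, RM against HS gave 8. The shares of all rows that passed in these fits are not given here. Lower counts are therefore not read as particular to the carriers. With Sham 1 and Sham 6 as the only controls, 9 passed in HS and 9 in RM-HS. For RM-HS against RM, 0 carriers passed in limma with no filter, with upper quartile scaling, with only the groups compared, with the name letter, with libraries named R alone (1 and 2 at an unadjusted p under 0.05 in the last 2), and in edgeR (9 at an unadjusted p under 0.05), while DESeq2 gave 1. Leaving out any of Sham 3, 4 or 5, RM 2, 3, 5 or 6, HS 1, 2, 4 or 5, or RM-HS 1 or 3 gave 0 as well. Direction was reversed for Slc25a45 with Sham 1 and Sham 6 alone (-0.55 in RM, -0.059 in RM-HS and 0.73 for additivity), and with libraries named R alone for Slc25a22 in RM (-0.11), Slc25a37 in RM against HS (-0.045) and Slc25a30 in RM against HS (0.0045). The cause was not tested, beyond the fewer libraries used. Over 252 carrier comparisons, edgeR kept the direction and side of the threshold for 242 and DESeq2 for 248. Only the groups compared could not be used for additivity, and Slc25a18 was lost under the stricter filter. The 3 libraries of RM-HS limit what could be detected there.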
